A study of Arabidopsis thaliana with 3 samples.

Results

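The jasmonate module described here comprised 38 *Arabidopsis* loci that make, sense, restrain or carry out the jasmonate response. They were picked by locus identifier, by a rule that uses no measured value but was written with earlier results of these data known, out of the 33559 loci of the expression table. The 3 RNA-seq libraries came from 14-day-old seedlings grown on agar medium under long days, all in the Col ecotype. One library was from *mms19-1*, a T-DNA insertion line of *MMS19*, which encodes a protein of cytosolic iron-sulfur cluster assembly, and 1 was from *abo4*, which carries a weak missense allele of the catalytic subunit of DNA polymerase ε. The remaining library was from the wild type, Col. The *abo4* line keeps some polymerase ε function, because loss of the gene is lethal in the embryo. Whole seedlings were used, so fewer cells of a type and less RNA per cell cannot be told apart. The study set the mutants beside the wild type to ask whether MMS19 and ABO4 affect the same genes.

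Jasmonates are lipid hormones made from linolenic acid in plastids and peroxisomes. The active form, the conjugate of jasmonic acid with isoleucine, binds the F-box receptor COI1 together with a JAZ repressor, the JAZ protein is degraded, and transcription factors such as MYC2 are released. JAZ genes and enzymes of jasmonate synthesis and breakdown are themselves induced by the hormone, so that a response includes its own brakes. In leaves, the MYC factors drive one output branch that includes vegetative storage proteins, while ERF factors drive another that includes the defensin *PDF1.2*.

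Each genotype had 1 library, which leaves every difference without a replicate check or a p-value. Levels are FPKM, that is fragments per kilobase of transcript after scaling for library size, and differences are log2 ratios of FPKM + 0.1, which understate the change of low genes. A ratio above 1 or below -1, or 2-fold, was counted. Both mutants were set against the same Col library, so their ratios are not independent. Read ratios are ratios of FPKM with nothing added, that is of estimated reads scaled by library depth. Their exact 95% intervals came from reads estimated from FPKM and transcript length. These intervals cover counting error only and compare libraries, not genotypes. The estimated depth was 51396099 fragments for *mms19-1*, 49691535 fragments for *abo4* and 56110394 fragments for Col. *MMS19* itself stood at 0.228 FPKM in *mms19-1* and 9.01 FPKM in *abo4*, against 10.14 FPKM in Col, as the *mms19-1* label requires. *ABO4* stood at 6.95 FPKM in *mms19-1* and 8.09 FPKM in *abo4*, against 5.03 FPKM in Col, and its transcript level does not check a missense allele. The libraries held both leaf and root RNA, as seedlings should. The leaf gene *RBCS1A* had 18809 FPKM in *mms19-1* and 19168 FPKM in *abo4*, against 16752 FPKM in Col, and none of the 4 green leaf and 6 root markers passed the 2-fold limit in either mutant.

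All 38 loci had 1 entry each, and 37 had a value above 0 in at least 1 library. In *abo4*, 5 of the 37 (13.5%) were more than 2-fold higher than in Col, against 3.87% of the 26416 loci above 0, and 0 were more than 2-fold lower, against 2.58%. The 5 were the repressor genes *JAZ5*, *JAZ7* and *JAZ8*, the jasmonate-isoleucine hydroxylase gene *CYP94B3* and *PDF1.2*. In *mms19-1*, 0 members were more than 2-fold higher, against 2.38% of all loci, and 0 were more than 2-fold lower, against 1.64%. At a 1.5-fold limit, 12 members (32.4%) were higher in *abo4*, against 9.14% of all loci, and 0 were lower, against 6.86%. At the same limit 4 members were higher in *mms19-1* (10.8%, against 5.28%) and 5 were lower (13.5%, against 4.49%). The median log2 ratio of the members was 0.11 in *abo4* and -0.01 in *mms19-1*, beside 0.00 and -0.01 over all loci. By sign alone, 21 of the 37 members were above Col and 16 were below it in *abo4*, beside 13343 and 12576 of all loci. In *mms19-1*, 18 were above it and 19 were below it, beside 12122 and 13484 of all loci.

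**Figure D1:**
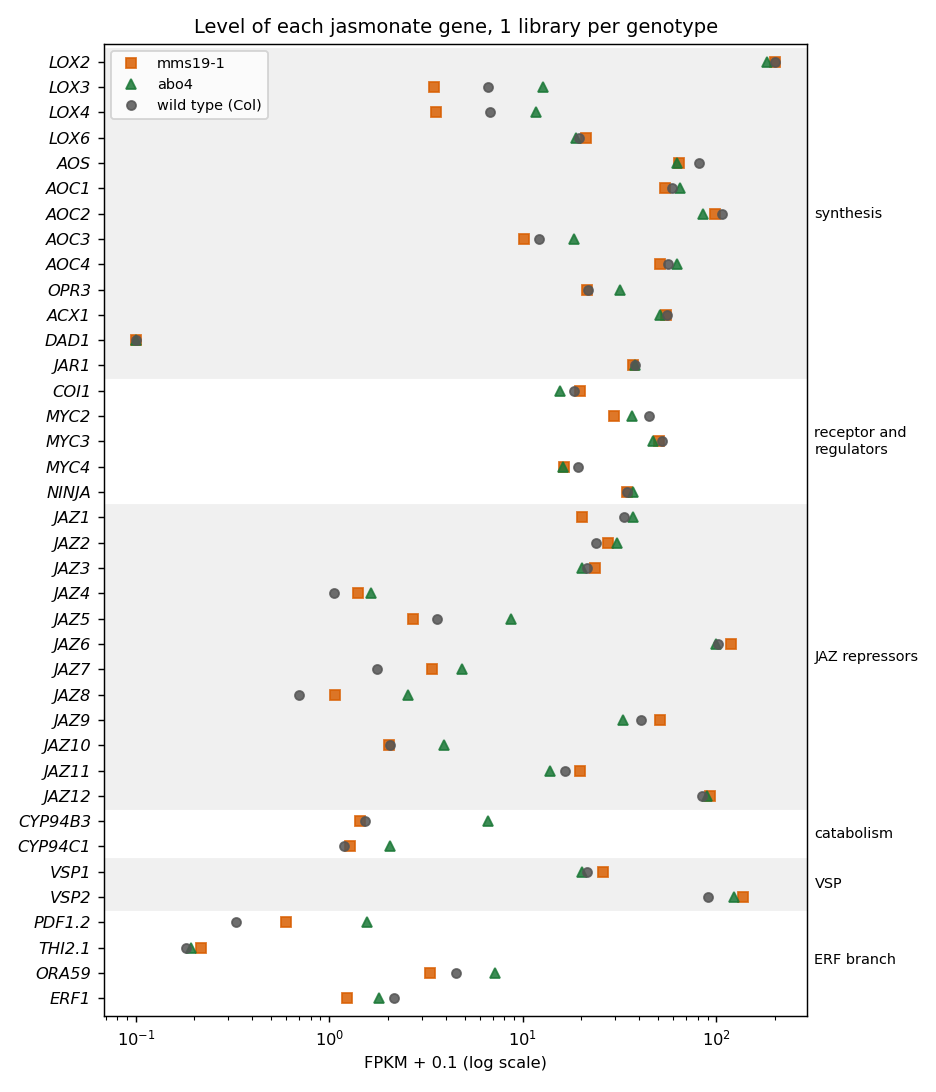
Level of each of the 38 genes in the *mms19-1* (square), *abo4* (triangle) and Col (circle) libraries, as FPKM + 0.1 on a log axis, grouped by role, with 1 library per genotype and no error bar. The 3 symbols lie close together for abundant genes such as *LOX2* and *JAZ12*, and the *abo4* triangle stands to the right of the other 2 for *CYP94B3*, *JAZ5*, *LOX3* and *LOX4*.

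The differences past 1.5-fold in *abo4* lay, with the exception of *AOC3*, among the members of low level, split here at a mean of 10 FPKM, a limit chosen after the values were seen. Of the 13 members with a mean above 0 and under 10 FPKM, 12 were higher in *abo4* and 1 was lower, 11 were more than 1.5-fold higher, 5 were more than 2-fold higher, and their median log2 ratio was 0.93. Over all 14663 loci with such a mean, 7994 were higher in *abo4* and 6176 were lower. Of these loci, 14.7% were more than 1.5-fold higher in *abo4*, 6.3% were more than 2-fold higher, and the median was 0.05. The single lower member was *ERF1*. Summed over these 13 genes, the level was 64.0 FPKM in *abo4*, against 31.1 FPKM in Col. In *mms19-1* the same 13 genes split 6 to 7, with a median of -0.01 and a sum of 24.4 FPKM, while all loci with such a mean split 6696 to 7163. Of the 24 members with a mean of at least 10 FPKM, 1 (4.17%, *AOC3*) was more than 1.5-fold higher in *abo4*, and their median was -0.07. Over all 11753 loci with such a mean the share was 2.25% and the median was -0.02.

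Among the synthesis genes, the highest values belonged to *LOX2* (AT3G45140), the main leaf lipoxygenase of jasmonate formation, which was the most abundant member in every library. It had 201.6 FPKM in *mms19-1* and 182.8 FPKM in *abo4*, against 199.7 FPKM in Col. Its relatives *LOX3* (AT1G17420) and *LOX4* (AT1G72520), which start jasmonate synthesis at lower levels and are known for male fertility and wound responses, differed among the libraries. In the TAIR10.1 annotation *LOX3* lies at chr1:5977323-5981521 and *LOX4* at chr1:27308513-27312756. *LOX3* had 3.39 FPKM in *mms19-1* and 12.6 FPKM in *abo4*, against 6.53 FPKM in Col. The read ratio was 0.518 (95% interval 0.465 to 0.577) in *mms19-1* and 1.93 (1.79 to 2.09) in *abo4*. *LOX4* had 3.46 FPKM in *mms19-1* and 11.6 FPKM in *abo4*, against 6.68 FPKM in Col, with read ratios of 0.517 (0.464 to 0.575) and 1.73 (1.60 to 1.87). Both genes were thus lowest in *mms19-1* and highest in *abo4*, and the *abo4* library held 3.73 times the *LOX3* level and 3.34 times the *LOX4* level of the *mms19-1* library. Of the 19771 loci with a mean of at least 1 FPKM, 63 (0.319%) were more than 1.5-fold lower in *mms19-1* and more than 1.5-fold higher in *abo4*, and 72 (0.364%) showed the opposite. *LOX3* and *LOX4* were the members among the 63. How reads shared by these related genes were assigned is not given in the sources used here. *LOX6* (AT1G67560), which acts in the rapid formation of jasmonate after wounding, had 21.1 FPKM in *mms19-1* and 18.6 FPKM in *abo4*, against 19.4 FPKM in Col.

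The next enzymes of the pathway are allene oxide synthase, encoded by *AOS* (AT5G42650), and the allene oxide cyclases, encoded by *AOC1* (AT3G25760) to *AOC4* (AT1G13280), which form the jasmonate ring. *AOS* had 64.3 FPKM in *mms19-1* and 62.6 FPKM in *abo4*, against 80.9 FPKM in Col, and was the lowest ranked member in *abo4* by log2 ratio (-0.37). *AOC3* (AT3G25780) had 10.01 FPKM in *mms19-1* and 18.2 FPKM in *abo4*, against 11.96 FPKM in Col, with a read ratio of 1.52 (1.40 to 1.65) in *abo4*. The other cyclase genes moved less, with log2 ratios between -0.34 for *AOC2* (AT3G25770) and 0.16 for *AOC4* in *abo4*. *AOC1*, *AOC2* and *AOC3* lie next to each other on chromosome 3, between positions 9403779 and 9411090 of TAIR10.1, and reads they share could have been divided among them. *OPR3* (AT2G06050), the peroxisomal reductase of the pathway, had 21.4 FPKM in *mms19-1* and 31.8 FPKM in *abo4*, against 21.7 FPKM in Col, a log2 ratio of 0.55 in *abo4*. *ACX1* (AT4G16760), an acyl-CoA oxidase that shortens the side chain, and *JAR1* (AT2G46370), which joins jasmonic acid to isoleucine, were within 0.12 of 0 in both comparisons. *DAD1* (AT2G44810), a phospholipase gene known from anthers, was listed at 0 in all 3 libraries. Over the 12 synthesis genes with a value, 0 passed the 2-fold limit in either mutant, 3 (25%) were more than 1.5-fold higher in *abo4*, against 9.14% of all loci, and 2 (16.7%) were more than 1.5-fold lower in *mms19-1*, against 4.49%.

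The receptor gene *COI1* (AT2G39940) had 19.5 FPKM in *mms19-1* and 15.5 FPKM in *abo4*, against 18.3 FPKM in Col. *MYC2* (AT1G32640), the principal activator of the MYC branch, was lower in both mutants, with 29.6 FPKM in *mms19-1* and 36.6 FPKM in *abo4*, against 45.01 FPKM in Col. Its read ratio was 0.658 (0.634 to 0.682) in *mms19-1* and 0.812 (0.784 to 0.840) in *abo4*. The related activators *MYC3* (AT5G46760) and *MYC4* (AT4G17880) had log2 ratios of -0.05 and -0.23 in *mms19-1* and of -0.16 and -0.26 in *abo4*. *NINJA* (AT4G28910), the adaptor that links JAZ proteins to co-repressors, stayed within 0.11 of 0 in both. In *abo4*, where *JAZ5*, *JAZ7*, *JAZ8* and *CYP94B3* were higher, transcripts of the receptor and of these 3 MYC activators were lower than in Col. Transcript levels do not measure the release of MYC factors from JAZ proteins, which was not tested.

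The 12 JAZ genes spanned a wide range of levels in Col, with *JAZ6* (AT1G72450) at 101.8 FPKM and *JAZ12* (AT5G20900) at 84.2 FPKM at the top and *JAZ8* (AT1G30135) at 0.594 FPKM at the bottom. The 3 genes past the 2-fold limit in *abo4* lay in the low part of this range. *JAZ5* (AT1G17380) had 2.6 FPKM in *mms19-1* and 8.58 FPKM in *abo4*, against 3.49 FPKM in Col. Its read ratio was 2.46 (2.14 to 2.82) in *abo4* and 0.744 (0.619 to 0.888) in *mms19-1*. *JAZ7* (AT2G34600) had 3.29 FPKM in *mms19-1* and 4.72 FPKM in *abo4*, against 1.66 FPKM in Col. It had the highest log2 ratio of any member in *mms19-1* (0.95), with a read ratio of 1.98 (1.42 to 2.77), beside 2.85 (2.07 to 3.90) in *abo4*. *JAZ8*, whose protein lacks the usual degradation motif and is a stable repressor, had 0.973 FPKM in *mms19-1* and 2.46 FPKM in *abo4*, against 0.594 FPKM in Col. The smallest whole reads that give its 3 values are 9, 22 and 6, so its ratio of 4.14 in *abo4* has an interval of 1.63 to 12.5, and that of 1.64 in *mms19-1* has one of 0.521 to 5.59.

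*JAZ10* (AT5G13220), whose splice variants help to end the response, had 1.94 FPKM in *mms19-1* and 3.79 FPKM in *abo4*, against 1.95 FPKM in Col. Its log2 ratio in *abo4* was 0.93, just under the limit. *JAZ4* (AT1G48500) was at 1.31 FPKM in *mms19-1* and 1.54 FPKM in *abo4*, against 0.954 FPKM in Col. *JAZ1* (AT1G19180) was further from Col in *mms19-1* than in *abo4*. It had 20.2 FPKM in *mms19-1* and 37.2 FPKM in *abo4*, against 33.2 FPKM in Col, with read ratios of 0.608 (0.568 to 0.650) and 1.12 (1.06 to 1.19). The other 6 JAZ genes were *JAZ2* (AT1G74950), *JAZ3* (AT3G17860), *JAZ6*, *JAZ9* (AT1G70700), *JAZ11* (AT3G43440) and *JAZ12*. They had log2 ratios between 0.12 and 0.33 in *mms19-1* and between -0.30 and 0.37 in *abo4*. In all, 3 of 12 JAZ genes (25%) were more than 2-fold higher in *abo4*, against 3.87% of all loci and 6.3% of those with a mean under 10 FPKM, and 0 were lower, against 2.58% of all loci. At the same time the summed JAZ level, set by the abundant members, was 362.9 FPKM in *mms19-1* and 345.1 FPKM in *abo4*, against 330 FPKM in Col.

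The cytochrome P450 genes *CYP94B3* (AT3G48520) and *CYP94C1* (AT2G27690) encode the enzymes that oxidise and thereby inactivate the hormone conjugate. *CYP94B3* had 1.35 FPKM in *mms19-1* and 6.50 FPKM in *abo4*, against 1.42 FPKM in Col. The read ratio in *abo4* was 4.56 (3.79 to 5.56), and by log2 ratio the gene ranked 99 from the top of the 19771 loci with a mean of at least 1 FPKM. In *mms19-1* its read ratio was 0.945 (0.735 to 1.22). *CYP94C1* had 1.19 FPKM in *mms19-1* and 1.95 FPKM in *abo4*, against 1.09 FPKM in Col, with a read ratio of 1.79 (1.40 to 2.29) in *abo4*. The related gene *CYP94B1*, not a member, differed less, with 1.91 FPKM in *mms19-1* and 1.94 FPKM in *abo4*, against 1.69 FPKM in Col. The estimated reads of *CYP94B3* numbered 119 in *mms19-1* and 555 in *abo4*, against 137 in Col, so its counting error was small beside that of *JAZ8*.

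**Figure D2:**
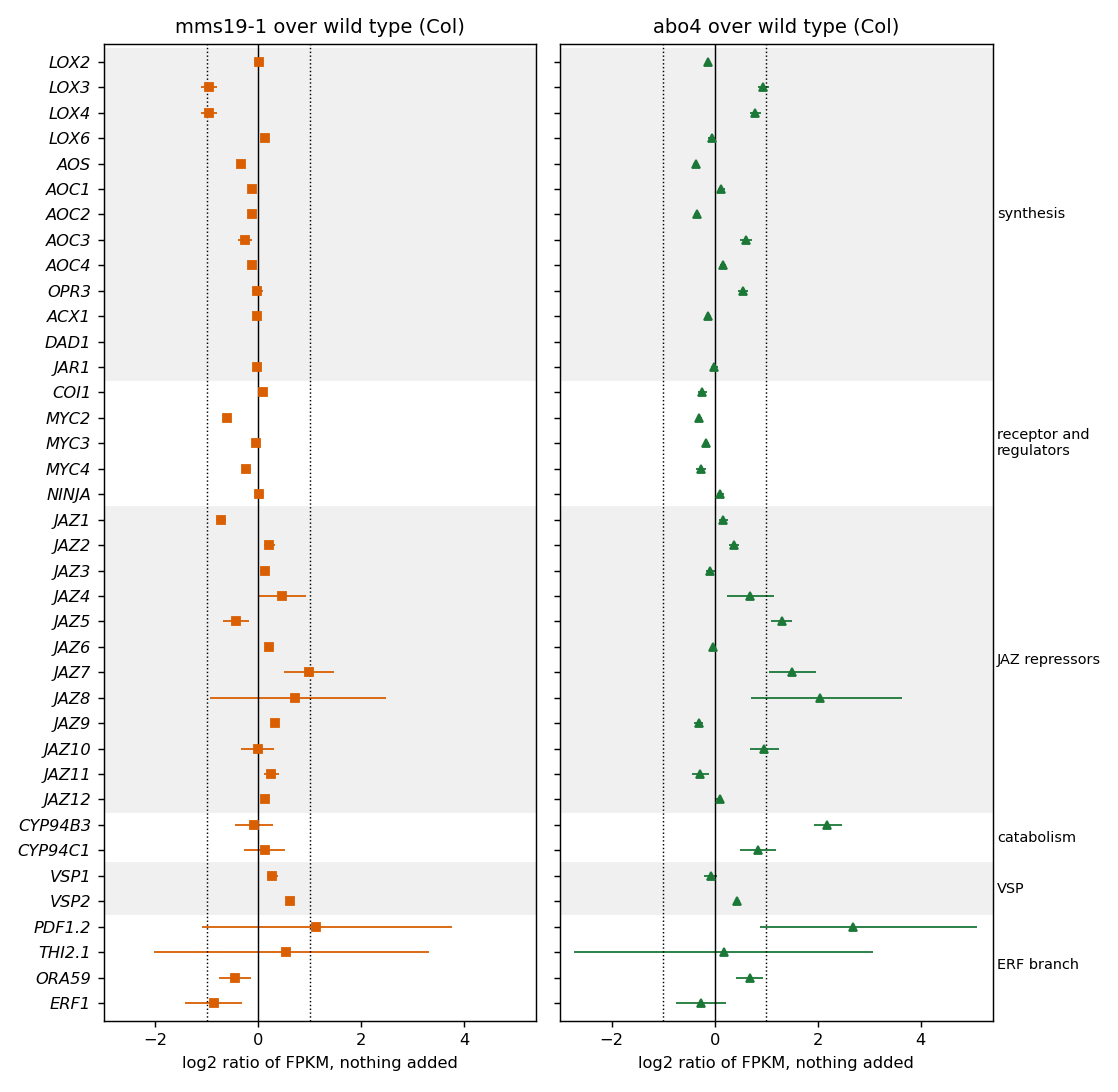
Log2 read ratios over Col of the 37 genes with a value in *mms19-1* (squares) and *abo4* (triangles), with no FPKM added, bars for the exact 95% intervals (counting error only) and dotted lines at -1 and 1. *CYP94B3* lies at 4.56-fold with a short bar in *abo4*, while the bars of *JAZ8*, *PDF1.2* and *THI2.1* are long because few reads stand behind them.

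The MYC branch was represented by vegetative storage protein genes. *VSP2* (AT5G24770), widely used as a marker of this branch, had 137.8 FPKM in *mms19-1* and 122.7 FPKM in *abo4*, against 90.0 FPKM in Col. Its read ratio was 1.53 (1.48 to 1.58) in *mms19-1* and 1.36 (1.32 to 1.41) in *abo4*. *VSP1* (AT5G24780) had 25.9 FPKM in *mms19-1* and 20.2 FPKM in *abo4*, against 21.4 FPKM in Col. These genes are near copies that lie close together on chromosome 5, so the split of reads between them is uncertain. *VSP2* was thus higher in both mutants while *MYC2* was lower in both, and neither passed the 2-fold limit.

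In the ERF branch, the transcription factor gene *ORA59* (AT1G06160) had 3.21 FPKM in *mms19-1* and 7.06 FPKM in *abo4*, against 4.41 FPKM in Col, with read ratios of 0.728 (0.589 to 0.906) and 1.60 (1.34 to 1.91). *ERF1* (AT3G23240), which joins jasmonate and ethylene signals, had 1.13 FPKM in *mms19-1* and 1.70 FPKM in *abo4*, against 2.05 FPKM in Col. Its read ratio was 0.552 (0.375 to 0.802) in *mms19-1* and 0.831 (0.592 to 1.16) in *abo4*. *PDF1.2* (AT5G44420) had 0.499 FPKM in *mms19-1* and 1.46 FPKM in *abo4*, against 0.229 FPKM in Col, which the smallest whole reads of 6, 17 and 3 account for. The ratio of 6.40 in *abo4*, the highest of any member, therefore has an interval of 1.85 to 34.1, and that of 2.18 in *mms19-1* has one of 0.466 to 13.5. *PDF1.2* belongs to a family of near-identical defensin genes whose reads may have been divided. The thionin gene *THI2.1* (AT1G72260) had smallest fitting whole reads of 4, 3 and 3 in *mms19-1*, *abo4* and Col. No difference was detectable at this depth.

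The 5 members more than 2-fold higher in *abo4* were compared in sequence, to show whether motifs known from jasmonate promoters lie just before their starts. The motifs searched, on both strands, were the G-box CACGTG, which MYC2 binds, its variant CACGTT, and the GCC-box GCCGCC, which ERF factors bind. The stretches are the 250 bases before each annotated gene start in RefSeq TAIR10.1, 5′ to 3′ on the strand of the gene, with motif matches in capitals.
JAZ7: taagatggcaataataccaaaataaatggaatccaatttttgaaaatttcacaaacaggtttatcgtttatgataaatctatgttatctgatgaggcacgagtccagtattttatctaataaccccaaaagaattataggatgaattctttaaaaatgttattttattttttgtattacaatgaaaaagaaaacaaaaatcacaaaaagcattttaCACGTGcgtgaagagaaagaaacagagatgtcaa
JAZ8: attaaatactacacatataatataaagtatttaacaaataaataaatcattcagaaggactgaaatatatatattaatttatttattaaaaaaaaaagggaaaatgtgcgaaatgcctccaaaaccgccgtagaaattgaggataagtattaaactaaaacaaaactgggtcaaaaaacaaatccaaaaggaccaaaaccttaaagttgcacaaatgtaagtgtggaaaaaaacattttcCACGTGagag
JAZ5: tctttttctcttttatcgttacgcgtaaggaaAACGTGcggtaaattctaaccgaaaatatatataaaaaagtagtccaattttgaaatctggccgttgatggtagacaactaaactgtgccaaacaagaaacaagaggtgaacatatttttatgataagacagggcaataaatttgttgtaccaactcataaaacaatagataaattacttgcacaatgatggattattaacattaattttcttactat
PDF1.2: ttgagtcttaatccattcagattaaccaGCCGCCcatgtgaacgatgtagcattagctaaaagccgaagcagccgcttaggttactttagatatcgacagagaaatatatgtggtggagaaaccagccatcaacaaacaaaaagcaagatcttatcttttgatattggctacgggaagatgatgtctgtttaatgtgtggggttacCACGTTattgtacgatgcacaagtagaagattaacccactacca
CYP94B3: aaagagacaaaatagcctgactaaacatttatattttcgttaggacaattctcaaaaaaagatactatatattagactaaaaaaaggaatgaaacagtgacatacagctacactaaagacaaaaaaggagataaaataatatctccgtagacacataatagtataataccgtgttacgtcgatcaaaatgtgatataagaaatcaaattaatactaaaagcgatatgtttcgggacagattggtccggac
The stretch of *JAZ7* is chr2:14572780-14573029 on the plus strand, with a G-box that begins 34 bases before the start. That of *JAZ8* is chr1:10596102-10596351 on the plus strand, with a G-box that begins 10 bases before it. That of *JAZ5*, chr1:5957512-5957761 on the minus strand, holds the variant, read from the other strand, 218 bases before the start. That of *PDF1.2*, chr5:17907639-17907888 on the minus strand, holds a GCC-box at 222 bases and the variant at 44 bases. The stretch of *CYP94B3*, chr3:17976775-17977024 on the minus strand, holds none of the 3 letter strings.

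Over all 38 members, 7 of these windows (18.4%) held the G-box, 11 (28.9%) held the variant and 2 (5.26%, *ORA59* and *PDF1.2*) held the GCC-box. The shares over the 27443 windows of protein-coding genes were 6.49%, 7.54% and 1.87%. The motifs were not limited to genes that differed among the libraries. *AOS* had a G-box 6 bases before its start and was lower in *abo4*, *JAZ3* had G-boxes at 82 and 140 bases and a log2 ratio of -0.09, and *LOX3* had no match. A match is a run of letters and not a measured binding site.

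**Figure D3:**
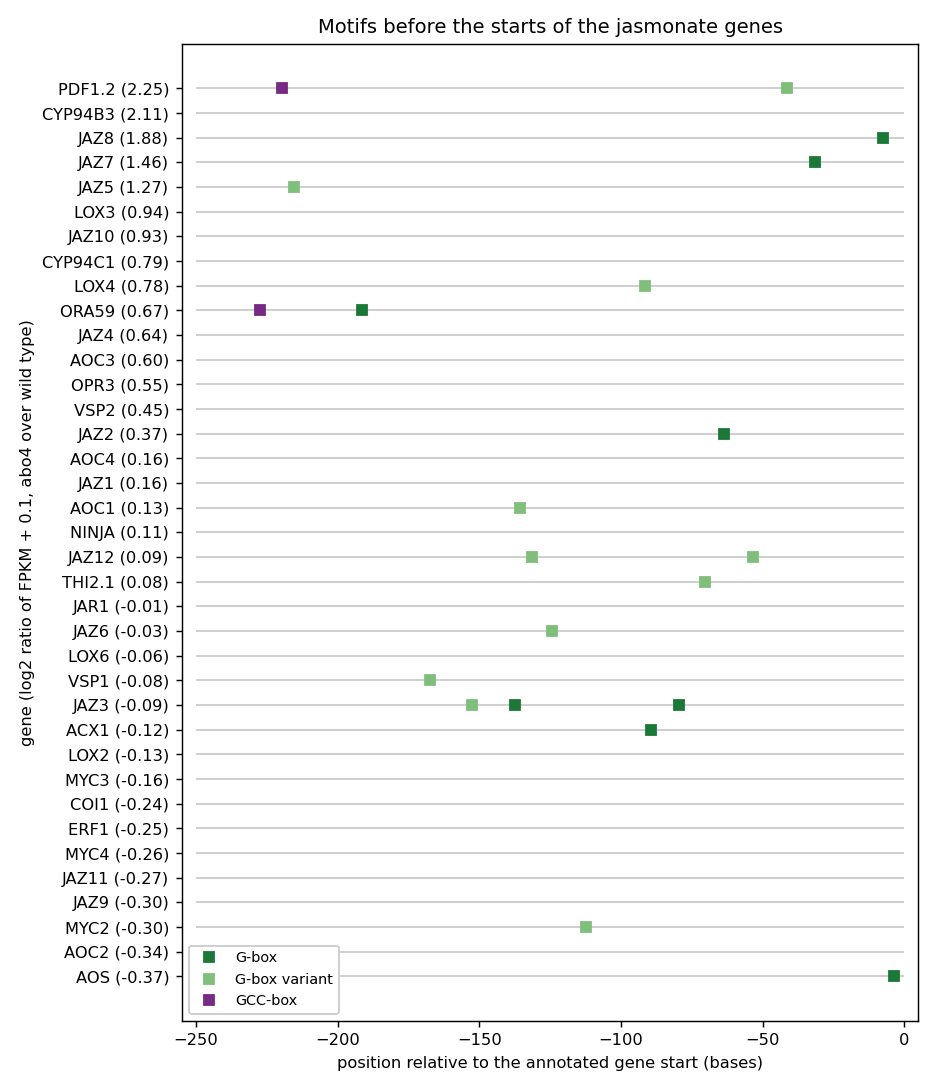
Position of the G-box, its variant and the GCC-box in the 250 bases before the start of the 37 genes with a value, ordered from the highest to the lowest log2 ratio of FPKM + 0.1 in *abo4* over Col. Squares mark matches, which lie before the starts of genes at the top, such as *JAZ8* (10 bases), and at the bottom, such as *AOS* (6 bases).

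Another 56 genes of the jasmonate pathway, 55 of them with a value, gave a wider view. In *abo4*, 5 (9.09%) exceeded Col by more than 2-fold, against 3.87% of all loci, and 2 (3.64%) fell short of it by as much, against 2.58%. The higher ones, named after their values were seen, were the defensin genes *PDF1.1* and *PDF1.2b* and the loci AT3G22275, AT3G11180 and AT2G38240, all at or below 1.08 FPKM in *abo4*. The lower ones were *HPL*, a lyase that competes with *AOS* for its substrate, at 1.46 FPKM in *abo4*, against 3.12 FPKM in Col, and *JRG21*, at 0.510 FPKM in *abo4*, against 1.27 FPKM in Col. Among those averaging at least 1 FPKM, the highest log2 ratio in *abo4* was that of *PR4*, a chitin-binding defence protein gene, at 243.9 FPKM in *abo4*, against 142.7 FPKM in Col. At a 1.5-fold limit, 8 of the 55 (14.5%) were higher in *abo4*, against 9.14% of all loci, and 7 (12.7%) were lower, against 6.86%. This list thus differed from Col in both directions in *abo4*. At that limit, 8 (14.5%, against 5.28%) were higher and 2 (3.64%, against 4.49%) were lower in *mms19-1*. In *mms19-1*, 2 of the 55 (3.64%) were more than 2-fold higher, against 2.38% of all loci, and 1 (1.82%) was more than 2-fold lower, against 1.64%, so both shares were near those of all loci. The higher ones were *PDF1.3* and *MYB21*, which was listed at 0 in Col, the lower one was *TAT3*, all 3 named after their values were seen, and none exceeded 0.67 FPKM in *mms19-1*. *CORI3*, a coronatine-induced gene, had 87.8 FPKM in *mms19-1* and 38.5 FPKM in *abo4*, against 52.8 FPKM in Col. *HPL* had the lowest ratio in *mms19-1* among the genes of that mean (-0.58).

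Other gene lists moved in the same libraries. Of 19 rapid touch and wound genes, 8 (42.1%) lay under Col by more than 2-fold in *mms19-1*, against 1.64% of all loci. In that library 0 lay above Col by as much, against 2.38%, and the summed level was 550.8 FPKM, against 887 FPKM in Col. *WRKY40*, an early stress transcription factor gene, had 9.90 FPKM in *mms19-1* and 16.0 FPKM in *abo4*, against 34.4 FPKM in Col. In *abo4*, 2 touch genes (10.5%, against 3.87% of all loci) were above Col by more than 2-fold. Another 3 (15.8%, against 2.58%) were below it by as much, and the list summed to 671.5 FPKM. *RRTF1*, a redox-responsive transcription factor gene, was the most different, at 4.09 FPKM in *abo4*, against 0.257 FPKM in Col. It reached a mean of 1 FPKM, the limit for naming, only through its *abo4* value. The median log2 ratio of the touch list was -0.18 in *abo4*, where jasmonate genes of low level were higher, and -0.81 in *mms19-1*, where *LOX3*, *LOX4*, *JAZ1*, *MYC2* and *ERF1* were lower by more than 1.5-fold and *JAZ7*, *JAZ8*, *PDF1.2* and *VSP2* were higher by as much. The part of handling or stress in either was not tested.

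Of 15 salicylic acid genes, 4 (26.7%, against 3.87% of all loci) passed the 2-fold limit upwards in *abo4*. In *mms19-1*, 4 (26.7%, against 1.64%) passed it downwards. *PR1*, the standard marker of that hormone, had 1.54 FPKM in *mms19-1* and 43.7 FPKM in *abo4*, against 7.09 FPKM in Col. The list summed to 135.7 FPKM in *mms19-1* and 212.1 FPKM in *abo4*, against 183.4 FPKM in Col. None of 15 ethylene genes passed the limit in either mutant, with log2 ratios between -0.60 and 0.09 in *mms19-1* and between -0.71 and 0.18 in *abo4*. Of 5 morning clock genes, 4 (80%, against 2.58% of all loci) passed the limit downwards in *abo4*, with a sum of 107.2 FPKM, against 251 FPKM in Col. In *mms19-1* that sum was 240.4 FPKM, and 0 of 7 evening clock genes passed the limit in either mutant. Time of harvest as a part of the *abo4* values was not tested.

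Of 16 flower markers, 10 (62.5%) passed the limit upwards in each mutant, against 2.38% of all loci in *mms19-1* and 3.87% in *abo4*. The list summed to 19.1 FPKM in *mms19-1* and 27.1 FPKM in *abo4*, against 4.59 FPKM in Col. *SEP2*, a floral organ identity gene, had 1.53 FPKM in *mms19-1* and 2.21 FPKM in *abo4*, against 0.0147 FPKM in Col. This gene reached the mean of 1 FPKM required for naming only through its mutant values. The anther markers of the list stayed at or near 0. *MS1* was listed at 0 in both mutants. *SPL* and the anther gene AT5G07230 were listed at 0 in *abo4* and in Col, and had 0.0182 and 0.0604 FPKM in *mms19-1*. *AMS* had 0.138 FPKM in *mms19-1* and 0.131 FPKM in *abo4*, against 0.0950 FPKM in Col. *DAD1*, the jasmonate member known from anthers, was likewise listed at 0, in all 3 libraries. Of 11 dry seed markers, 6 (54.5%, against 2.38% of all loci) passed the limit upwards in *mms19-1*, with a sum of 44.2 FPKM, against 19.97 FPKM in Col. In *abo4*, 2 (18.2%, against 2.58%) passed it downwards, with a sum of 11.8 FPKM. The part of flower buds or seed tissue in the jasmonate values was not tested.

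**Figure D4:**
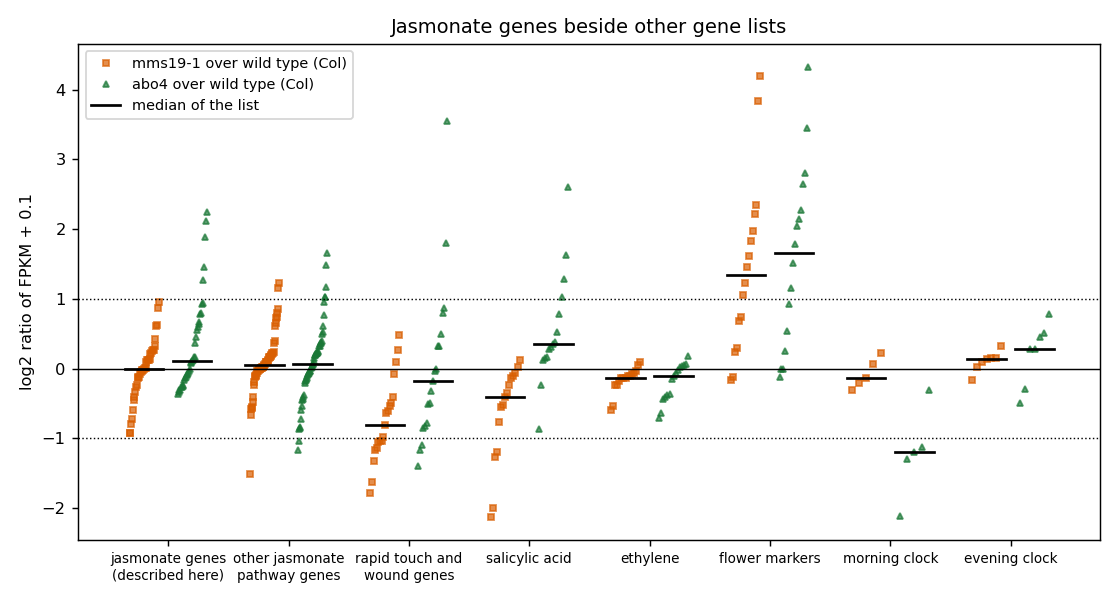
Log2 ratios of FPKM + 0.1 over Col in *mms19-1* (squares) and *abo4* (triangles) for the jasmonate members and 7 other lists, each symbol 1 gene, with a black bar at the median and dotted lines at -1 and 1. The jasmonate members have medians of -0.01 in *mms19-1* and 0.11 in *abo4* with an upper tail in *abo4*, while flower markers lie high in both mutants and morning clock genes lie low in *abo4*.

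Across the 37 members with a value, *abo4* was the highest library for 18 (48.6%), *mms19-1* for 11 (29.7%) and Col for 8 (21.6%). Over all loci with a mean of at least 1 FPKM the shares were 39%, 28% and 33%. Only 35 members meet that filter, so the sets compared are not matched. The members most different between libraries were *PDF1.2*, *CYP94B3*, *JAZ8*, *LOX3*, *LOX4* and *JAZ5*, with 6.40-, 4.83-, 4.14-, 3.73-, 3.34- and 3.30-fold between the highest and the lowest library. *JAR1* was the most even, with 1.02-fold between its highest and its lowest library.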

How the data were processed

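Poly(A) RNA of 3 seedling samples was sequenced as 45-bp reads, with 1 library per genotype. Per the methods and labels, the authors aligned reads to TAIR10 with TopHat2 2.0.12 (up to 2 mismatches) and computed the deposited FPKM values with Cufflinks 2.0.1. How they treated reads with several alignments is not given in the sources used here. Of several entries of a locus, the larger mean was kept. Log2 ratios used FPKM + 0.1, with no test. All 279 organelle loci were listed at 0 in every library, so a 0 was given no floor.

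Reads were estimated from FPKM and TAIR10.1 transcript lengths (fragments of 200 ± 80 nt, at least 49 nt). The depth of each library was fitted so that values at short transcripts of 60 to 150 nt came out near whole reads. At the fitted depths 93% to 95.9% of these values lay within 0.05 of whole reads, a share that is no separate check. TAIR10.1 transcripts can be longer than those of TAIR10, so for *JAZ8*, *PDF1.2*, *THI2.1* and *ERF1* the smallest fitting whole reads were used. For *JAZ8* these were 9, 22 and 6 in *mms19-1*, *abo4* and Col, against length-based estimates of 30.1, 73.6 and 20.1. The other members, such as *JAZ7*, kept length-based reads that were not checked in this way. Their intervals may therefore be too narrow. Intervals and ratios were tested on simulated counts, which cannot show an error in the transcript lengths used. The simulated reads were more than the whole reads used for *JAZ8*, *PDF1.2* and *THI2.1*, so their intervals were not covered. Python 3.11.15, numpy 2.4.6, pandas 2.3.3, scipy 1.17.1 and matplotlib 3.10.9 were used.

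Members and lists were chosen with earlier results of these data known. All members are described, and of each other list the largest rise and fall among those averaging at least 1 FPKM could be named. Other names were chosen after their values were seen. Alternatives were 0.01 or 1 FPKM added, a filter, centring, summed entries and a 1.5-fold limit. Summing entries could change no member, since none had several entries.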

Additional observations from a re-analysis of the deposited data

Results flagged for a closer look

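*LOX3* and *LOX4* stood apart because the mutants differed from Col in opposite directions by more than 1.5-fold. *LOX3* had a log2 ratio of -0.93 in *mms19-1* and 0.94 in *abo4*, and *LOX4* had -0.93 and 0.78. The difference between the mutants was not tested, since each had 1 library and both were set against the same Col library.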

How the results depend on the processing

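With 0.01 FPKM added, 1 member (*PDF1.2*) was more than 2-fold higher in *mms19-1*, against 0 with 0.1 FPKM. At a 1.5-fold limit, 4 members were higher and 5 were lower in *mms19-1*, and 12 were higher in *abo4*. The 74 log2 ratios of single members stayed within their counting intervals with 0.01 FPKM added or with centring on the median of all loci. With 1 FPKM added, 4 fell outside these intervals. They were *LOX3* (-0.78) and *LOX4* (-0.79) in *mms19-1*, and *JAZ5* (1.09) and *CYP94B3* (1.63) in *abo4*. Adding the same FPKM to both libraries cannot change the sign of a ratio. The medians used for centring (-0.02 in *mms19-1* and -0.01 in *abo4*) were too small to change that of a called ratio. The kept signs are therefore no check. Also with 1 FPKM added, *PDF1.2* stood at 1.00 and *JAZ8* at 1.12 in *abo4*, against 2.25 and 1.88 with 0.1 FPKM, moves within their wide counting intervals that left *PDF1.2* at the limit. A filter on a mean of at least 1 FPKM kept 35 members and left 4 past the limit in *abo4*, but *JAZ8* passed that filter only through its *abo4* value, so this count is no check of it. Depth limits *JAZ8*, *PDF1.2* and *THI2.1*, whose smallest fitting whole reads were under 25 in every library. Their length-based estimates were higher, such as 73.6 reads for *JAZ8* in *abo4*, so the true reads may be more. No paired analysis was possible because each genotype had 1 library, and for the same reason no library could be left out.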
